A study of Mus musculus with 2 samples.

Results

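Bidirectional promoters bound by USF1 were examined by ChIP-seq, with an antibody to USF1, in CH12.LX cells, which come from a B-cell lymphoma of mouse strain B10.H-2aH-4bp/Wts. There was 1 group of 2 biological replicates of this cell line, with no treatment named in the labels, and both replicates contribute to the mm9 peak list from which the promoters were taken. A peak was kept when its summit, the base of highest enrichment, had within 1 kb the 5′ ends of protein-coding transcripts (Gencode vM1) of at least 2 genes on opposite strands. This gave 336 of the 10624 peaks. They are compared with 2746 peaks whose neighbouring 5′ ends lay on one strand only, called one-strand peaks, and the other 7542 peaks had no protein-coding 5′ end within 1 kb.

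The 336 peaks lay at 308 different sets of genes. In 26 of these sets there were 2 peaks, in 1 set there were at least 3, and 6 peaks had 3 genes within reach, so the members name 619 genes in all. In 280 peaks the nearest 5′ ends of the pair were head to head, meaning that the genes were transcribed away from each other, and in 56 the transcripts overlapped at their starts. Chromosome 11 held 46 members, the highest count, followed by chromosome 7 with 34. The distance rule cut through a continuous range. Just inside it were Fam63b/Gm10642, Zfyve26/Rad51l1 and Mepce/Zcwpw1, whose farther 5′ end was 983, 984 and 989 bp from the summit and whose signal was 65.8, 1623 and 318. Just outside were peaks at Dirc2/Hspbap1, Hcst/Nfkbid and Atg14/Gm6616 at 1003, 1005 and 1020 bp, with signals of 2710, 29.2 and 860. A weaker peak at Dirc2/Hspbap1, with a signal of 134, was inside the rule and is a member.

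In a bidirectional promoter, a short stretch of DNA carries the start sites of a pair of genes that are read in opposite directions. Such promoters are usually rich in CpG and poor in TATA boxes, and they are known for housekeeping genes, among them many of DNA repair and of mitochondria. USF1 is a basic helix-loop-helix leucine zipper factor that binds as a dimer to the E-box CACGTG, which is its own reverse complement, so the site reads alike for either gene of a pair. A related hexamer, CACATG, is called the CA-centred E-box here. The number of reads behind the lists is unknown, and the signal of a peak is the authors' value, whose scale is not given in the sources used here. Peaks are not replicates, so every p below covers counting error over sites.

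The DNA under the strongest members shows the hexamers that USF1 is known to bind. Each sequence is the plus strand of mm9 (NCBIM37) from 50 bp before to 50 bp after the summit, and each pair is written with its minus-strand gene before its plus-strand gene. The first 7 are among the 8 strongest members with CACGTG, which is in capitals, and Osgep/Apex1 was added after its values were seen because it carries 3 copies.
Slc35a5/Atg3 (chr16:45158813-45158913): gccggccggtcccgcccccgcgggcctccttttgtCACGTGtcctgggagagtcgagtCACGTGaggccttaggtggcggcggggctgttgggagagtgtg
Glyr1/Ubn1 (chr16:5050013-5050113): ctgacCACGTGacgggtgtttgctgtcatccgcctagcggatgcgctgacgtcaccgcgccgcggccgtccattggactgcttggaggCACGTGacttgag
1810031K17Rik/Fam134a (chr1:75139251-75139351): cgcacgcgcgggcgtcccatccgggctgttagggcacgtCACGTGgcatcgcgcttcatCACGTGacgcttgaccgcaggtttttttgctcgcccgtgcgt
Atpaf2/4933439F18Rik (chr11:60230640-60230740): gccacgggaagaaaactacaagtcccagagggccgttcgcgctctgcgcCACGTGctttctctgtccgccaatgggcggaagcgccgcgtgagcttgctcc
1700052N19Rik/Rmnd1 (chr10:5914082-5914182): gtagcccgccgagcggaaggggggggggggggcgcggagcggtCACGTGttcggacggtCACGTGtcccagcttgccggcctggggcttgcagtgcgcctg
Eftud2/Ccdc103 (chr11:102742457-102742557): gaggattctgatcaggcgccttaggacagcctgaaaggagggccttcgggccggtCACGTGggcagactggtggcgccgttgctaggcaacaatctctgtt
Fam118b/Rpusd4 (chr9:35075333-35075433): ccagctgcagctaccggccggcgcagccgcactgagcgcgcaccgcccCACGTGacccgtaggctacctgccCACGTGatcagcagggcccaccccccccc
Osgep/Apex1 (chr14:51544556-51544656): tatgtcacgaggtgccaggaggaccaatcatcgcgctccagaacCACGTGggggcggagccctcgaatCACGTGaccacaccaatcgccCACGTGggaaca
Of these 8 windows, those of Atpaf2/4933439F18Rik and Eftud2/Ccdc103 hold 1 copy of CACGTG and the other windows hold more.

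The 3 strongest members with CACATG and no CACGTG are shown next, with the hexamer in capitals on whichever strand it was read (CATGTG on the printed strand).
Eaf2/Golgb1 (chr16:36874991-36875091): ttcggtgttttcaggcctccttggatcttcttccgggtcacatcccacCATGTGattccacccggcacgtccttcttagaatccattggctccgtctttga
Spcs2/Xrra1 (chr7:107007417-107007517): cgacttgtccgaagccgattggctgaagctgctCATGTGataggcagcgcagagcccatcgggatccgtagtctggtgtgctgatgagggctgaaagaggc
Top3a/Smcr8 (chr11:60590980-60591080): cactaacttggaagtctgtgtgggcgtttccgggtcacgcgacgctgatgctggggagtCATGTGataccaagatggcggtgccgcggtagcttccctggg
Each of these 3 windows holds 1 copy.

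Members with neither hexamer are represented by their 3 strongest. Capitals mark every hexamer that differs from CACGTG by 1 base, CACATG aside, on either strand.
Srsf2/Mfsd11 (chr11:116714999-116715099): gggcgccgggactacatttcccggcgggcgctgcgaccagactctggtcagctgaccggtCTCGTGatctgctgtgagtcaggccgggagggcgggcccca
Pi4ka/Snap29 (chr16:17405948-17406048): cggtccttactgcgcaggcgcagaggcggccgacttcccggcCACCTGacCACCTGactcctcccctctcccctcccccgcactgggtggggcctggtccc
Ctns/Shpk (chr11:73012510-73012610): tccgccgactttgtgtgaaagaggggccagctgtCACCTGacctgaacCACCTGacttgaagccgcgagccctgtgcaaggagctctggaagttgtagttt
Srsf2/Mfsd11 holds CTCGTG, the reverse complement of CACGAG. Pi4ka/Snap29 and Ctns/Shpk each hold a pair of CACCTG copies.

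The strongest members were led by a pair with a splicing factor gene. The highest value of all was 4957 at Srsf2/Mfsd11, rank 4 in the whole list; Srsf2 encodes a splicing factor, and the mm10 lists of the replicates have no region there. Slc35a5/Atg3 had a signal of 4750 and rank 6, with 79 bp between the 5′ ends; Atg3 is the enzyme that joins ATG8 proteins to lipid in autophagy. Glyr1/Ubn1 reached 4232, with 158 bp between the 5′ ends, and Ubn1 belongs to a histone chaperone complex. Eftud2/Ccdc103 reached 3263, and Eftud2 is a GTPase of the spliceosome. Osgep/Apex1, which pairs a tRNA-modifying enzyme with an endonuclease of base excision repair, had 2973 across 75 bp.

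Over the 25 strongest members on different pairs, signal ran from 1936 to 4957 and the weakest ranked 170 in the whole list. CACGTG lay within 50 bp of the summit in 22 of the 25, 21 were head to head, and in 21 the summit lay between the 5′ ends. Over all 336 members these counts were 189, 280 and 182. Among promoter peaks with a signal of at least 604.79, CACGTG was in 86.25% of bidirectional and 88.5% of one-strand peaks. A high CACGTG share was thus not particular to strong bidirectional members, and the 25 were not tested against these shares. Within the 25, the centre of the nearest CACGTG, where present, was 0.5 to 40.5 bp from the summit. Other pairs of this group were Atpaf2/4933439F18Rik with 3598 (Atpaf2 assembles the mitochondrial ATP synthase), Dolk/Nup188 with 2453 (a dolichol kinase and a nuclear pore protein), and Neurl2/Ctsa with 2291 (Ctsa is the lysosomal cathepsin A). Slc25a32/Dcaf13 had 1953; Slc25a32 carries folate into mitochondria. Eaf2/Golgb1 with 1953 and Spcs2/Xrra1 with 1936 had the CA-centred E-box only, and Spcs2 is a subunit of the signal peptidase.

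Of 12 textbook bidirectional pairs, 5 had a member. Over all bidirectional promoters, with the genes of a pair counted as 1, 28.5% had a summit within 1 kb of a 5′ end. The 12 pairs were not tested against this share. Rps28/Ndufa7, a cytosolic ribosomal protein and a subunit of respiratory complex I, had a signal of 1042, with CACGTG in capitals below (same window and strand, chosen after its values were seen).
Rps28/Ndufa7 (chr17:33961414-33961514): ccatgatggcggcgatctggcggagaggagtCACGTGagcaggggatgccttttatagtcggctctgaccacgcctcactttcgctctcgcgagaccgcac
Wrap53/Trp53, where Trp53 encodes the tumour suppressor p53, had 467 across 104 bp, with CACGTG 13.5 bp from the summit. Atm/Npat, a DNA damage kinase and a histone gene regulator, had 148 with neither hexamer. Brca1/Nbr1 had 81.6 with neither hexamer; Brca1 acts in homologous recombination and Nbr1 is an autophagy receptor. Hspd1/Hspe1, the mitochondrial chaperonin pair, had 2 peaks with CACGTG, the stronger at 79.7. Those without a member in the mm9 list included Surf1/Surf2, Ppat/Paics, Tcp1/Mrpl18, Sars2/Mrps12, Col4a1/Col4a2 and Tap1/Psmb9. In the mm10 lists, however, Surf1/Surf2 had a region with a signal of 86.0 in replicate 1 and 109 in replicate 2. These were above the 63.4 and 66.4 of Atm/Npat. The other 5 pairs just named had no region within 1 kb of their RefSeq 5′ ends in the mm10 list thresholded by the authors. All 12 pairs were annotated with opposite 5′ ends at most 307 bp apart.

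No difference was detected between bidirectional and one-strand promoters in the share of peaks among the strongest 20%, and the signal itself was not tested. The median was 104 (quartiles 47.2 and 548) over the 336 bidirectional peaks and 98.3 (quartiles 45.7 and 403) over the 2746 one-strand peaks. Of the bidirectional peaks, 133 (39.6%, 95% Wilson interval 34.5 to 44.9) were among the strongest 20% of the whole list, against 1016 (37.0%, 35.2 to 38.8) of the one-strand peaks. That class, 2125 peaks, holds 20.0% of all peaks by construction. The odds ratio was 1.12 (0.877 to 1.41; Fisher's exact test, two-sided, p = 0.370). Within the 3 E-box classes the shares were 55.0% against 51.8% for CACGTG, 38.1% against 26.8% for the CA-centred E-box alone, and 16.7% against 13.5% for neither, bidirectional before one-strand, and no difference passed the test (Fisher's exact test, adjusted p = 0.441 in each class).

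**Figure D1:**
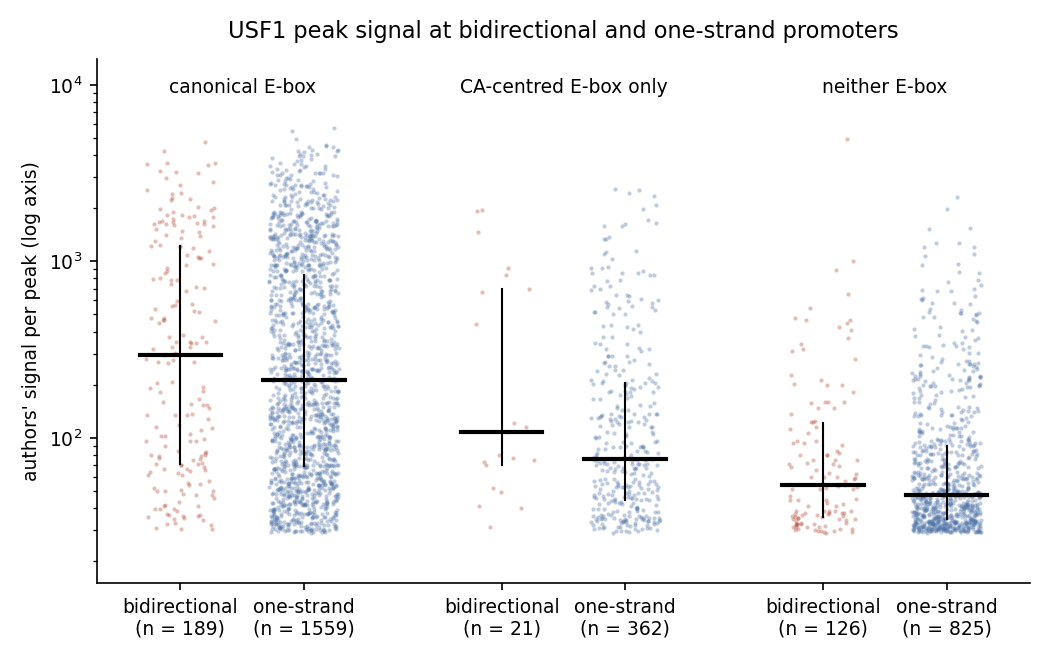
Authors' signal of each USF1 peak (log axis) at bidirectional and one-strand promoters, split by E-box class within 50 bp of the summit; points are peaks, thick bars medians and thin bars quartiles. The medians fall from canonical to CA-centred to neither in both promoter types, from 296 to 108 to 53.8 at bidirectional and from 212 to 75.5 to 47.2 at one-strand promoters.

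The 2 replicates could be set side by side only in the mm10 lists. There 272 of the 8108 regions of the optimal list, which the authors thresholded by the agreement of ranks between lists (IDR), were at bidirectional promoters by the RefSeq 5′ ends, and 1942 were at one-strand promoters. Ranked by replicate 1, 119 of the 272 (43.75%) fell in the strongest 20%, against 756 of 1942 (38.9%). Ranked by replicate 2, the counts were 117 (43.0%) and 741 (38.2%). The mean was 43.4% ± 0.520 for bidirectional and 38.5% ± 0.546 for one-strand promoters (SD over the 2 replicates), a difference of 4.84 percentage points ± 0.0262. This SD describes only how alike the replicates rank the same regions, and no test was made across regions. The direction was the same as in mm9, where the difference was 2.58 percentage points and did not pass the test.

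**Figure D2:**
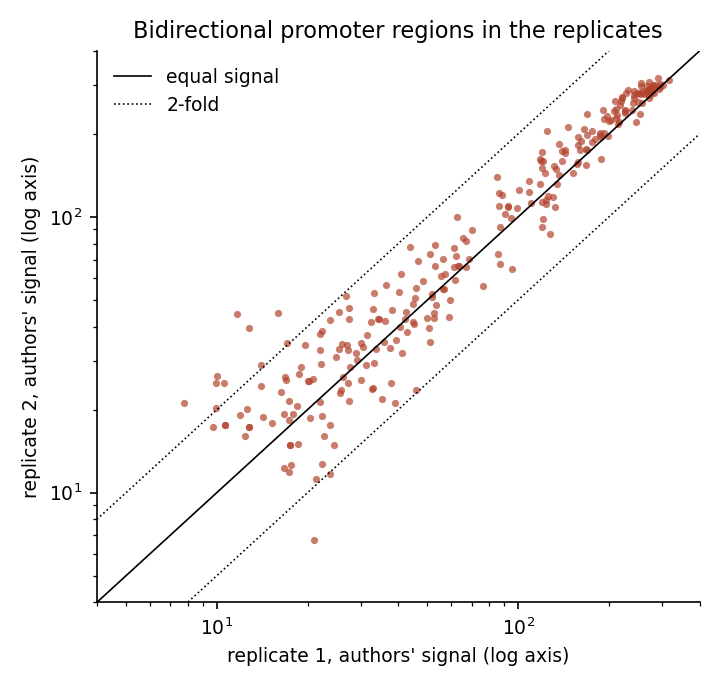
Authors' signal in replicate 1 (x axis) and replicate 2 (y axis), both log axes, at the 269 mm10 bidirectional promoter regions found in both replicates; the solid line marks equal signal and the dotted lines a 2-fold difference. Of the 269 regions, 12 lie beyond the dotted lines.

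Across those 269 regions Spearman's rho between the replicates was 0.962, beside 0.952 across 1926 one-strand regions; both replicates were ranked on regions that were selected for being found in both. Replicate 2 over replicate 1 had a median log2 ratio of 0.14 at bidirectional and 0.16 at one-strand regions. By gene name, all 308 gene sets could be placed in mm10, 33 of them through 1 gene only. The replicates' own lists are relaxed. In both of them a region lay within 1 kb of a 5′ end for 288 of the 308 (93.5%), and for 80.9% of 2535 one-strand gene sets. In the thresholded optimal list it did so for 244 of the 308 (79.2%) and for 67.5% of one-strand gene sets. Among gene sets with neither E-box, the optimal list had a region for 65.8% and 58.4%, bidirectional before one-strand. Most pairs offer ends of more than 1 gene to this search, so the shares were not tested against each other. Each gene had 1 RefSeq 5′ end here, while the mm9 sets used any annotated transcript 5′ end. A peak at another start of a gene can thus be missed, in either promoter type. Slc35a5/Atg3 had 269 and 287 in replicates 1 and 2 on the mm10 scale, Osgep/Apex1 253 and 236, and Neurl2/Ctsa 262 and 279. Wrap53/Trp53 had 122 and 144, Atm/Npat 63.4 and 66.4, and Brca1/Nbr1 27.5 and 21.5. The order of these 6 pairs in each replicate differed from that in mm9 only between Osgep/Apex1 and Neurl2/Ctsa.

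Srsf2/Mfsd11, the strongest member in mm9, had no region near it in either replicate. The nearest mm10 summit was 12795 bp from its 5′ ends in replicate 1 and 12788 bp in replicate 2. Likewise 1700052N19Rik/Rmnd1, with 3518 in mm9, had its nearest summits 6554 bp away in replicate 1 and 6724 bp away in replicate 2. The other 23 of the 25 strongest pairs were present in both, at 210 to 316 in replicate 1 and 229 to 317 in replicate 2. In all, 8 of the 308 gene sets had no region within 1 kb of their RefSeq 5′ ends in either replicate's list. Which step sets the lists of the 2 builds apart here was not tested. Restricted to genes with a region in a replicate's list, an alternative chosen after seeing the data, the odds ratio of the strongest 20% in mm9 was 1.04 (Fisher's exact test, p = 0.761).

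CACATG without CACGTG was rarer at bidirectional than at one-strand promoters, windows with neither hexamer were more frequent, and no difference was detected for the canonical E-box. CACGTG lay within 50 bp of the summit in 189 of 336 bidirectional peaks (56.25%, 50.9 to 61.5) and 1559 of 2746 one-strand peaks (56.8%), with 53.3% over all peaks. The odds ratio was 0.979 (0.774 to 1.24; exact adjusted p = 0.861). CACATG without CACGTG was in 21 bidirectional peaks (6.25%) and 362 one-strand peaks (13.2%), with 30.1% over all peaks. Its odds ratio was 0.439 (0.264 to 0.695; exact adjusted p = 4.4e-04). Neither hexamer was present in 126 bidirectional peaks (37.5%) and 825 one-strand peaks (30.0%), with 16.6% over all peaks. The odds ratio was 1.40 (1.09 to 1.78; exact adjusted p = 0.00884). All 3 are Fisher's exact tests, two-sided, adjusted by the Benjamini-Hochberg method over the 3 classes.

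Base composition moved with these differences. The 201-bp window around the summit was CpG-rich (CpG observed over expected of at least 0.6 and GC of at least 55%) in 249 bidirectional peaks (74.1%) and 1733 one-strand peaks (63.1%), an odds ratio of 1.67 (1.29 to 2.19; exact adjusted p = 9.7e-05). In a logistic regression with log2 signal, CpG and GC as covariates, the odds ratio was 0.628 (0.393 to 1.00; p = 0.0516, n = 3082 peaks) for the CA-centred E-box alone and 1.30 (0.978 to 1.72; p = 0.0710) for neither, so both calls were lost (adjusted p = 0.106 for both). With 5′ ends within 500 bp the call for neither hexamer was lost as well (odds ratio 1.35, exact adjusted p = 0.0508).

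**Figure D3:**
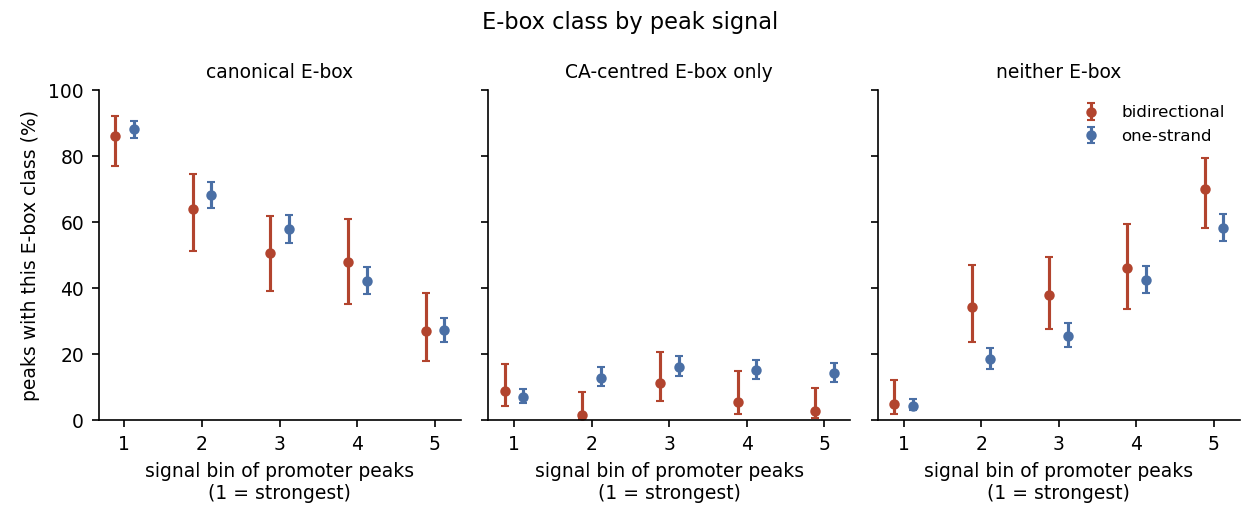
Share of promoter peaks (percent, with 95% Wilson intervals) with the canonical E-box, the CA-centred E-box alone or neither, in 5 equal bins of promoter peaks by authors' signal, 1 being the strongest; bidirectional peaks are drawn left of one-strand peaks. The canonical share falls from 86.25% to 27.1% of bidirectional peaks between bins 1 and 5, and the share with neither rises from 5% to 70%.

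Within bins of equal signal, the CA-centred E-box alone was in 1 of 61 bidirectional peaks (1.64%) and 72 of 555 one-strand peaks (13.0%) of bin 2 (exact adjusted p = 0.0141). In bin 5 it was in 2 of 70 (2.86%) and 78 of 546 (14.3%; exact adjusted p = 0.0141). Bins 3 and 4 had lower bidirectional shares that did not pass, and in bin 1 the share was 8.75% of bidirectional and 7.08% of one-strand peaks (exact adjusted p = 0.643). Windows with neither hexamer made up 34.4% of bidirectional and 18.6% of one-strand peaks in bin 2 (exact adjusted p = 0.0318), and no other bin passed for this class. For CACGTG none of the 5 bins passed. Within 5 equal bins of CpG content, bin 1 being the lowest, none passed for the CA-centred E-box alone (Fisher's exact test, smallest adjusted p = 0.159). Its share was lower at bidirectional peaks in every bin but bin 3, for example 10.7% against 30.4% in bin 1. In bin 3 it was 11.8% of bidirectional and 8.08% of one-strand peaks. For neither hexamer bin 2 passed, with 44.7% of bidirectional and 25.7% of one-strand peaks (exact adjusted p = 0.0473). In CpG bin 4 that share was 31.3% of bidirectional and 40.9% of one-strand peaks, and it did not pass.

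The bases beside CACGTG gave no detected difference between the promoter types in any of the 10 forms tested (Fisher's exact test, smallest unadjusted p = 0.315). CCACGTGA, read on either strand, was the form nearest the summit in 45 of 189 bidirectional peaks (23.8%) and 26.8% of 1557 one-strand peaks. The symmetrical TCACGTGA was in 38 (20.1%) and 18.4%. Signal went with the form: TCACGTGA had a median of 1344 at bidirectional and 715 at one-strand promoters, CCACGTGA 561 and 464, GCACGTGA 628 and 396, and CCACGTGG 107 at each. GCACGTGC, seen at 5 bidirectional peaks, had medians of 47.9 and 63.1.

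Members with more than 1 copy of CACGTG were few, and most of them had high signal. There were 13 (3.87% of bidirectional peaks), a share close to the 106 (3.86%) of one-strand peaks (odds ratio 1.00, 0.511 to 1.82). Of the 13, 11 (84.6%) were in the strongest 20%, against 93 of 176 members with a single copy (52.8%), an odds ratio of 4.91 (1.02 to 46.5; Fisher's exact test, two-sided, adjusted p = 0.0400). Among one-strand peaks the shares were 71.7% of 106 and 50.4% of 1453 (odds ratio 2.50, exact adjusted p = 3.9e-05). Both comparisons were chosen after seeing the data, and whether the effect of a further copy differs between promoter types was not tested. Restricted to genes with a region in a replicate's list, which leaves out 1700052N19Rik/Rmnd1, the shares of the members were 10 of 12 (83.3%) and 90 of 169 (53.3%), and the call was lost (Fisher's exact test, p = 0.0683). The centres of neighbouring copies were 16 to 83 bp apart. They were 23 bp apart at Slc35a5/Atg3, 24 bp at Fam118b/Rpusd4, 20 bp at 1810031K17Rik/Fam134a, and 24 and 21 bp at Osgep/Apex1. The exceptions to high signal were 1110031I02Rik/Hexdc with 154 and Ccdc116/Ydjc with 47.9.

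Summits without either E-box held 3 relatives of CACGTG more often than the DNA beside them. Of the 8 hexamers that differ from CACGTG by 1 base (CACATG aside, merged with their reverse complements), CACGCG was in 40 of 126 such members (31.7%, 24.3 to 40.3). In windows 500 bp away on either side it was in 3.17%. Upstream and downstream here mean lower and higher mm9 coordinates, whatever the strand of the genes. CACGAG was in 21 (16.7%, against 3.17% beside them) and CACCTG in 25 (19.8%, against 7.54%). Against the upstream window, exact McNemar tests gave adjusted p = 3.1e-10, 0.00195 and 0.0217 for these hexamers, and the other 5 did not pass. One-strand peaks without either E-box had 25.6% CACGCG, 12.1% CACGAG and 22.9% CACCTG, and none of the 8 hexamers differed between the promoter types (Fisher's exact test, smallest adjusted p = 0.422). These counts were made after seeing the data. CpG observed over expected had a median of 0.921 in the members' windows, against 0.636 upstream and 0.577 downstream, and its part in CACGCG and CACGAG was not tested. CACGTG was also sought farther out. Within 200 bp of the summit 6 of the 126 (4.76%) had a copy, all more than 50 bp away by the choice of these members. In windows of 200 bp on each side centred 1 kb downstream the share was 6.35%. There the whole window could hold a copy, but at the summit the inner 50 bp on each side could not. The shares are therefore not alike, and whether copies are more frequent near the summit cannot be read from them. One-strand peaks without either E-box had 6.42% near the summit and 6.30% downstream.

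Among 17 motif strings, read on both strands, 2 differed in share between the promoter types. The CA-centred E-box, here whether or not CACGTG was also present, was in 29 bidirectional peaks (8.63%) and 438 one-strand peaks (16.0%; exact adjusted p = 0.00451). ACTACAA, part of the site of ZNF143 and THAP11, was in 14 bidirectional peaks (4.17%, 2.50 to 6.87) and 47 one-strand peaks (1.71%), an odds ratio of 2.50 (1.25 to 4.67; exact adjusted p = 0.0478). In windows 500 bp to either side it was in 0.595% and 0.728%, and over all peaks in 1.12%. Of the 14, 8 had neither E-box, among them Ctns/Shpk. With windows of 25 bp on each side the odds ratio was 1.64 and the call was lost (exact adjusted p = 0.551).

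The other motif strings did not pass. The GC box GGGCGG, bound by SP and KLF factors, was in 39.0% of bidirectional and 34.1% of one-strand peaks. CCAAT, the site of NF-Y, was in 21.7% and 20.2%, and CCGGAAG, an ETS site, in 9.82% and 8.08%. GCGCATGCG, the NRF1 site, was in 2.08% and 1.09%. TATAAA was in 3 bidirectional peaks (0.893%) and 1.68% of one-strand peaks.

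Most head-to-head summits lay between the 5′ ends of the pair, taken on each strand as the end nearest the summit. Closeness to an end follows in part from this choice. The ends were a median of 168.5 bp apart (quartiles 97.75 and 394; range 3 to 1273). The summit lay between them in 172 of 280 peaks (61.4%, 55.6 to 66.9), inside the minus-strand gene in 62, and inside the plus-strand gene in 46. In the 134 cases with the ends at least 100 bp apart and the summit between them, 57 summits (42.5%, 34.5 to 51.0) fell in the segment beside the minus-strand gene when the stretch was cut into 3 equal segments. The middle segment held 23 (17.2%, 11.7 to 24.4), and the segment beside the plus-strand gene held 54 (40.3%, 32.4 to 48.8). The shares of the outer segments thus lay within each other's intervals and above that of the middle. All of this is description, since distances to 5′ ends entered the choice of members and of the ends themselves. A summit between these ends can lie inside a transcript that starts farther out, as at Srsf2/Mfsd11, where it was in an intron.

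**Figure D4:**
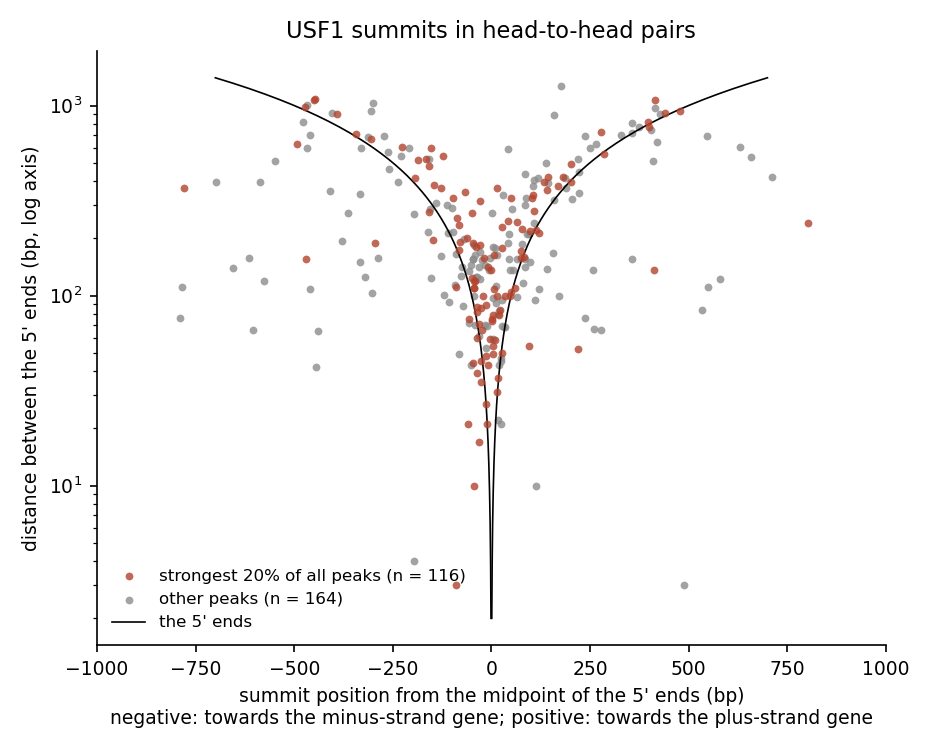
Position of each head-to-head summit relative to the midpoint of the 5′ ends (x axis, bp) against the distance between the ends (y axis, bp, log axis). On each strand the 5′ end nearest the summit was used. The lines are these 5′ ends, and red points are peaks in the strongest 20% of the list. Of the strongest, 86 of 116 lie between the lines, and of the others 86 of 164.

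Stronger peaks were more often between the ends. The share was 74.1% (65.5 to 81.2) for head-to-head members in the strongest 20% of all peaks and 52.4% (44.8 to 59.9) for the others. It was 57.8% (49.9 to 65.3) of the 154 members with CACGTG and 65.7% (56.2 to 74.1) of the 105 with neither. Signal did not follow the distance between the ends in one direction: the share in the strongest 20% was 42.2% with ends up to 300 bp apart and 40.0% beyond. Of the 56 peaks at overlapping pairs, 17 (30.4%, 19.9 to 43.3) were in the strongest 20%, against 41.4% (35.8 to 47.3) of the 280 peaks at head-to-head pairs, and the intervals overlap. The strongest overlapping pairs were Tomt/2400001E08Rik with 3182, Eme1/Mrpl27 with 2265 and Usp31/1700069B07Rik with 2016, all with CACGTG; Eme1 is part of a DNA repair nuclease and Mrpl27 is a protein of the mitochondrial ribosome.

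The annotation at the summits is given without a test, because the members were chosen by 5′ ends on both strands. Summits were in an untranslated exon in 117 members (34.8%) and 19.0% of one-strand peaks, in a coding exon in 35 (10.4%) and 2.66%, in an intron in 79 (23.5%) and 26.2%, and between genes in 105 (31.25%) and 52.1%. The median distance to the nearest 5′ end was 42 bp for bidirectional and 118 bp for one-strand peaks.

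Seen from the genes, those with a bidirectional promoter were more often bound. Of 22359 protein-coding genes on chromosomes with peaks, 2525 had an opposite 5′ end of another gene within 1 kb of one of their own. A USF1 summit lay within 1 kb of a 5′ end for 668 of these (26.5%, 24.8 to 28.2) and for 2519 of the 19834 one-way genes (12.7%, 12.2 to 13.2), with 14.3% over all genes. The odds ratio was 2.47 (2.24 to 2.73; Fisher's exact test, two-sided, p = 1.7e-66). Genes of a pair share their peaks, and with linked genes counted as 1 promoter the odds ratio was 2.75. Such a promoter offers the ends of more than 1 gene to the search. Genes with a bidirectional promoter also had more annotated 5′ ends, a mean of 2.44 against 2.01, and any of them could count. With only the outermost 5′ end of each gene the odds ratio was 2.49. With a summit required within 100 bp of a 5′ end the shares were 13.9% and 6.29% (odds ratio 2.41).

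**Figure D5:**
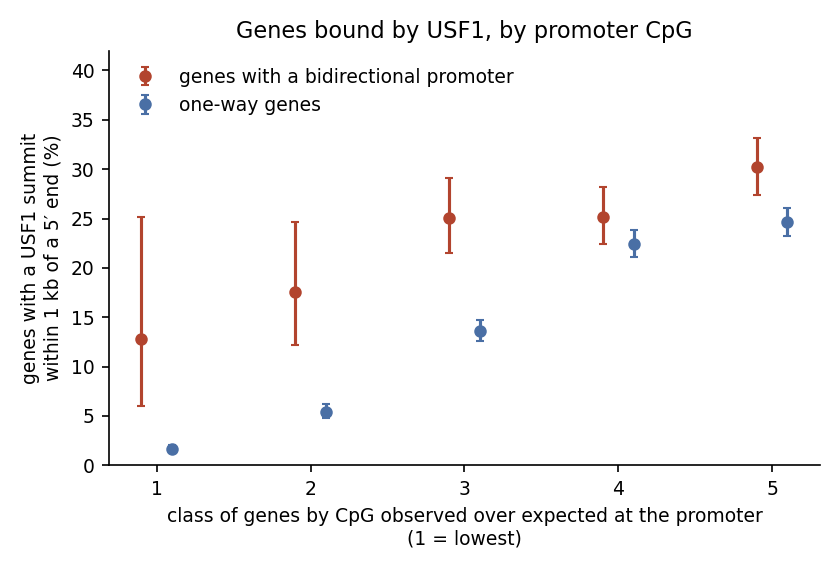
Share of protein-coding genes with a USF1 summit within 1 kb of a 5′ end (percent, 95% Wilson intervals), by 5 equal classes of promoter CpG observed over expected (1 is lowest), for genes with a bidirectional promoter and one-way genes. The gap is 12.8% against 1.67% in the lowest class and 30.2% against 24.6% in the highest.

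CpG content moved with this difference too. Its median at the outermost 5′ end was 0.765 for genes with a bidirectional promoter and 0.489 for one-way genes. Within 5 equal classes of CpG the shares bound were 12.8% and 1.67% in the lowest, 17.6% and 5.45% in the second, 25.1% and 13.6% in the third, 25.2% and 22.4% in the fourth, and 30.2% and 24.6% in the highest. All passed except the fourth (exact adjusted p = 0.0865), and only 47 bidirectional genes were in the lowest class. With CpG in a logistic regression the odds ratio was 1.47 (1.32 to 1.62; p = 1.9e-13, n = 22359 genes). The classes and the regression count each gene of a pair separately, so their p and intervals do not allow for shared peaks. Linked genes were counted as 1 promoter (1247 promoters) only without CpG. How far the genes are transcribed in these cells was not measured.

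Genes of the lists used here with a bidirectional promoter are described here by counts beside the 26.5% bound of all genes with such promoters and the 12.7% of one-way genes. Among lysosomal genes, 8 of 10 with a bidirectional promoter were bound, and 29 of 42 one-way genes; 6 of the 8 are at a member, since a bound gene may have its summit within 1 kb of its own 5′ end only. Neurl2/Ctsa had 2291, Gla/Hnrnph2 1597 (Gla is alpha-galactosidase), Sgsh/Slc26a11 1063 (Sgsh is sulfamidase), and Gnptg/0610007P22Rik 798 (Gnptg is part of the enzyme that tags lysosomal proteins). Galns/Trappc2l had 672 with the CA-centred E-box alone. For the vacuolar ATPase, the proton pump of lysosomes, 2 of 3 and 12 of 14 genes were bound, with Atp6v1a/Naa50 at 783 and Slc18a1/Atp6v1b2 at 136. For autophagy it was 3 of 7 and 13 of 27; beside Slc35a5/Atg3, Atg12/Ap3s1 had 34.4 and Atg13/Harbi1 30.4, both with neither E-box.

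DNA repair genes had 9 of 23 bidirectional and 11 of 34 one-way promoters bound. Below Osgep/Apex1, Hscb/Chek2 had 191 (Chek2 is a checkpoint kinase), Atm/Npat 148, and Dak/Ddb1 93.9 (Ddb1 recognises ultraviolet damage in a complex). Of the 9 repair genes, Apex1, Chek2 and Pms2 had CACGTG at their strongest peak and the other 6 had neither hexamer. A weaker peak at Hscb/Chek2, with 31.5, had neither hexamer. Over all members 37.5% of peaks had neither, and the 9 genes were not tested against this share. Replication and cell cycle genes had 5 of 11 and 9 of 40 bound. Orc4/Mbd5 had 1474 and Vps35/Orc6 317, where Orc4 and Orc6 are subunits of the origin recognition complex. Mcm7/Ap4m1 had 693; Mcm7 is a subunit of the replicative helicase.

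Mitochondrial ribosomal genes had 8 of 27 bidirectional and 13 of 49 one-way promoters bound, led by Eme1/Mrpl27 with 2265, Helq/Mrps18c with 1524 and Mrpl41/Pnpla7 with 345. Klc4/Mrpl2, a member with 2401, is not among these 8, because its 5′ ends are 1074 bp apart although both lie within 1 kb of the summit. For oxidative phosphorylation the counts were 5 of 26 and 8 of 49, with Atp5h/Kctd2 at 159, Wdr4/Ndufv3 at 38.6 and Ndufs1/Eef1b2 at 36.5 below Rps28/Ndufa7. Cytosolic ribosomal genes had 4 of 13 and 16 of 61 bound, tRNA synthetases 3 of 10 and 5 of 26, chaperones 4 of 13 and 6 of 25, and the proteasome 2 of 9 and 5 of 31. Ears2/Ubfd1 had 193, Tbccd1/Dnajb11 1227 (Dnajb11 is a chaperone of the endoplasmic reticulum) and AY074887/Psma4 371. Sphk2/Rpl18 had 76.4, Rps27a/1700034F02Rik 38.2, D17H6S56E-5/Vars 39.5, Wars/Wdr25 32.3, Nit1/Pfdn2 71.3 and Psma7/Ss18l1 95.5. In nucleotide synthesis 0 of 5 bidirectional and 10 of 25 one-way promoters were bound. None of 31 B-cell identity genes and none of 19 liver genes had a bidirectional promoter, beside 2525 of all 22359 protein-coding genes. With lists this short, the absence was not tested. As one-way genes, 10 of the B-cell genes and 0 of the liver genes were bound.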

How the data were processed

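USF1 ChIP-seq of 2 biological replicates was deposited as narrowPeak lists. Per the deposited readme files, the mm9 list came from both replicates' mm9 alignments, each replicate has a relaxed mm10 list, and the optimal and conservative lists were thresholded by IDR. Peak caller, settings, aligner and depth were not given in the sources used here, and control libraries were not used here. The authors' signal (column 7, deposited, scale not given) ranked peaks within 1 list; column 9 of the same deposited list was taken as −log10 q, and the authors' score columns of the mm10 lists were not used further.

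Peak positions were set against Gencode vM1 and the NCBIM37 genome; all 21 peak chromosomes are in that genome and 0 peaks run past a chromosome's end. Windows were 50 bp on each side of the summit, both strands, with control windows 500 bp away towards lower (upstream) and higher (downstream) coordinates. CpG observed over expected used 201 bp around summits and 500 bp on each side of each gene's outermost 5′ end. For mm10, each gene had 1 RefSeq 5′ end, the start of its gene span in GRCm38.p6. Its strand came from Gencode vM1 by symbol (20341 of 21900 genes, 92.9%). A replicate's signal was the highest among regions overlapping the optimal region by at least 1 bp. No coordinate was converted between builds. Fisher's exact tests (scipy 1.17.1) were two-sided, with Benjamini-Hochberg adjustment within each family and a threshold of 0.05; logistic regression used statsmodels 0.14.6; intervals are 95% and cover counting error only. The scripts were tested on simulated windows and tables with known answers. Summit position and gene lists are given as shares with intervals or as counts, and no test of them is reported.

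The promoters, motif strings and gene lists were chosen with earlier results of these data known. Genes named are those at the 25 strongest members on different gene pairs, 12 known pairs, the 3 strongest members with CACATG only, with neither hexamer and with overlapping starts, and up to 4 bound bidirectional genes per list by signal; further names were chosen after their values were seen. List symbols without a match (Atg101, Rad51d, Rad9a, Rps3a1, Pfdn6 and Syk) were left out. Some gene pairs are counted but not reported here by name.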

Additional observations from a re-analysis of the deposited data

How the results depend on the processing

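No paired analysis was possible because there was 1 group. The odds ratio of the canonical E-box share lay between 0.841 and 1.00 over 11 alternatives and passed the test in none; with 5′ ends within 2 kb it was 1.004, the other side of 1 from the 0.979 reported. For the CA-centred E-box alone it lay between 0.366 and 0.628, and for neither hexamer between 1.30 and 1.62. For the CA-centred E-box alone 10 of 11 alternatives kept the call and for neither hexamer 9 of 11, adjusted over the 3 classes. Regression on signal, CpG and GC ended both calls (0.628 and 1.297), and 5′ ends within 500 bp ended that for neither hexamer (1.35, exact adjusted p = 0.0508); the cause was not tested. The odds ratio of the strongest 20% lay between 1.04 and 1.20 in 9 alternatives, none of them past the threshold, and that of bound genes between 1.47 and 2.75 in 6, all past it. For bound genes, only the alternative with linked genes as 1 promoter did not count a shared peak for each gene. Of the motif strings, 1 passed with windows of 25 bp (the CA-centred E-box) and 1 with head-to-head pairs only (ACTACAA), against 2 in the reported comparison. The CA-centred E-box then had an odds ratio of 0.585 (exact adjusted p = 0.0597) with head-to-head pairs. The replicates' difference in the strongest 20%, 4.84 percentage points, was 4.82 without replicate 2 and 4.86 without replicate 1, 5.53 with the conservative list (6.35 in replicate 1 and 4.71 in replicate 2) and 5.70 with an overlap of at least 50% (6.55 and 4.86). The closeness of the 2 replicates thus holds only for the reported setting. The number of members was 247 with 5′ ends within 500 bp and 422 within 2 kb.

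Leaving out chromosome 11, regression of bound genes on CpG, and restriction to genes with a region in a replicate's mm10 list were added after seeing the data and changed no call, except that the last ended the call for members with more than 1 copy of CACGTG (odds ratio 4.39, exact p = 0.0683). Depth is unknown, so how many weak sites were missed cannot be stated. With 21 members in the class, shares of the CA-centred E-box alone are imprecise.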
